A study of Homo sapiens with 16 samples.

Results

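AHNAK, VIM, CD44, LGALS1, ANXA1, ANXA2, S100A4, S100A6, S100A10 and S100A11 code for proteins of the cell membrane, the cytoskeleton and cell movement. They were taken by gene symbol from the count files of 16 RNA-seq libraries, and 10 of 10 were found among 62714 listed genes. The set was drawn up after 7 of the 10 genes had been seen at high levels almost only in the 4 libraries of control pools treated with IL4. Their levels in those libraries are therefore given as a description, without a test. For the 10 genes, the comparisons that leave those libraries out were tested, and other genes of the same families were tested in every comparison.

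The libraries came from 4 established human B-cell lymphoma lines. SU-DHL4 gave the libraries of line 1 and DOHH2 those of line 4. For the other lines, OCI-LY7 and SU-DHL10, the labels conflict on the order, so these are called line 2 and line 3 here. In each line either CREBBP, a histone acetyltransferase and transcriptional coactivator, or the AAVS integration site, the control, was cut with Cas9 and 4 guides per target from a lentiviral vector. The targeted cells were kept as pools and were not cloned, and the control pools carry Cas9, the vector and a cut locus as well. SU-DHL4, DOHH2 and SU-DHL10 were grown in RPMI and OCI-LY7 in IMDM. Cells of every pool were then cultured for 4 h without IL4 (baseline) or with 10 ng/ml of IL4. The 4 groups are named by the target and the treatment, as in AAVS IL4 or CREBBP baseline, and each has 1 library per line (n = 4 lines). The spread within a group is therefore a spread between cell lines, and a pool was not repeated within a line.

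Annexins bind membrane phospholipids when calcium rises, and S100 proteins are small calcium-binding dimers that attach to them. S100A10, which has lost calcium binding, pairs with ANXA2 into a complex at the inner face of the plasma membrane that also holds the giant scaffold protein AHNAK, and S100A11 pairs with ANXA1. CD44 is the receptor for hyaluronan and is joined to the actin cortex by ezrin, radixin and moesin, vimentin (VIM) forms intermediate filaments, and LGALS1 codes for galectin-1, a secreted lectin that binds galactose-containing glycans. In lymphoid tissue, naive and memory B cells and T cells carry high levels of CD44, whereas germinal centre B cells, the counterpart of these lymphoma lines, carry little.

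Total counts ranged from 19649735 to 61981976 per library, and the AAVS IL4 libraries had the lowest group median. CREBBP transcripts overlapped between pools, in CPM (counts scaled to the same library total in every sample). They had 205 to 359.6 CPM at AAVS baseline and 187 to 278 CPM at CREBBP baseline. The levels were 190.5 to 379 CPM in AAVS IL4 and 69.9 to 245 CPM in CREBBP IL4. Transcript counts do not measure the protein, whose loss in the targeted pools the paper reports from immunoblotting. Of the genes of the labelled cell type, 10 of 10 B-cell genes and 10 of 10 germinal centre genes reached 1 CPM in at least 1 library, and their sums were high in all 16. The libraries labelled AAVS IL4 nevertheless stood apart from the other 12, including those of the same lines, in genes of other cell types. Whether they hold RNA of the labelled lines alone was not tested, so every value given for them below is that of the libraries so labelled, and a difference from baseline is not thereby a response to IL4. In them, 11 of 13 T-cell genes, 6 of 12 genes of naive and memory B cells, 3 of 8 NK-cell genes, 4 of 13 myeloid genes, 1 of 8 stromal genes, 0 of 6 endothelial genes, 2 of 6 epithelial genes and 3 of 7 erythroid and platelet genes were above all 12 other libraries, against 4.4% of the 21932 genes kept by the filter on low counts. IGHM, the heavy chain of IgM, lay at 138 to 1711 CPM in them and at most at 0.0696 CPM elsewhere.

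The promoters of 6 members are printed because their genes are neighbours with unlike levels (the S100 genes on chromosome 1) or code for the surface receptor and the filament protein of the set (CD44 and VIM). Each sequence is the 250 bases before the transcription start (RefSeq, GRCh38.p14), read 5′ to 3′ on the strand of the gene. Capitals mark matches, on either strand, to 7 motifs that were searched: the STAT-type motifs TTCNNNNGAA, the form STAT6 prefers, and TTCNNNGAA, the TATA box TATAAA, the CCAAT box CCAAT, the GC box GGGCGG, the AP-1 motif TGANTCA and the E-box CACGTG. The printed stretches are chr1:153535992-153536241 for S100A6, chr1:153545807-153546056 for S100A4, chr1:151993860-151994109 for S100A10 and chr1:152037005-152037254 for S100A11, all on the minus strand. The gene bodies of S100A6 and S100A4 lie 7368 bases apart and those of S100A10 and S100A11 38646 bases apart. CD44 (chr11:35138921-35139170) and VIM (chr10:17227991-17228240) are on the plus strand. The starts are those of RefSeq, whereas the gene positions given below are those of GENCODE. For S100A6, S100A4, S100A11 and CD44 the GENCODE gene begins further upstream, so the printed stretch lies within it.
S100A6: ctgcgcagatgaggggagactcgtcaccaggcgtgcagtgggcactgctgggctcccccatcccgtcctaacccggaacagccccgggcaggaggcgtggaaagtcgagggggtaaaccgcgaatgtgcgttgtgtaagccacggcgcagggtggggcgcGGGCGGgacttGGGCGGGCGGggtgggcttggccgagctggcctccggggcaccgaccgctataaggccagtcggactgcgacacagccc
S100A4: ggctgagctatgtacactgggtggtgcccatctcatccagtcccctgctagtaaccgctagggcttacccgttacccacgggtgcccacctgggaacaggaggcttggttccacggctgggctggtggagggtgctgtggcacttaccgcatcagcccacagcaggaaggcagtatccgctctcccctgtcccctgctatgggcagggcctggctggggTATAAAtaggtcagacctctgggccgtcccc
S100A10: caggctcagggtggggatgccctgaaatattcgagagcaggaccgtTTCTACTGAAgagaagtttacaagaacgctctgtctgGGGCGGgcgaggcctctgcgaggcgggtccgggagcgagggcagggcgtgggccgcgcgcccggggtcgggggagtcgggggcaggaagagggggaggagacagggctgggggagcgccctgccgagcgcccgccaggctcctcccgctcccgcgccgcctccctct
S100A11: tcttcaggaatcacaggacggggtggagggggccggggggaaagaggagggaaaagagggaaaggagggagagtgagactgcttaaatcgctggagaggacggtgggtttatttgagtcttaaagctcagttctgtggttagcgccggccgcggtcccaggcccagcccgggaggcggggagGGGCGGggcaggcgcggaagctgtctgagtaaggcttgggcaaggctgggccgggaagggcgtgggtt
CD44: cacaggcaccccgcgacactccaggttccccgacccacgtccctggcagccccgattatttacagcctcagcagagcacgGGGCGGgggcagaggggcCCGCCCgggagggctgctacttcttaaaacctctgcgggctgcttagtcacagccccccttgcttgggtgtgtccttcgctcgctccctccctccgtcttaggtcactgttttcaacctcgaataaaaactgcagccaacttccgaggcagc
VIM: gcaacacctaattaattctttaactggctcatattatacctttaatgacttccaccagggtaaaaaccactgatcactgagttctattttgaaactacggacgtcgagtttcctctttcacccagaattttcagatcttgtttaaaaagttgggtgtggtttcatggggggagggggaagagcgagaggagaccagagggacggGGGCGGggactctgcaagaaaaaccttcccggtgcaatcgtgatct

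Over the full window of 250 bases before to 50 after the start, 9 of the 10 members had a promoter in the RefSeq table, and LGALS1 had none. A GC box was found in 7 of the 9 (AHNAK, VIM, CD44, ANXA2, S100A6, S100A10 and S100A11), against 45% of all 35116 promoters. TATAAA stood 31 bases before the start in ANXA1, ANXA2 and S100A4 (11.5% of all promoters). TTCNNNNGAA was found in S100A10 alone, 204 bases before the start (6.44% of all promoters). TTCNNNGAA was found in ANXA1 alone, 11 bases past the start (7.66%), as was CCAAT (34.6%), and TGANTCA was found in ANXA2 alone (7.71%). CACGTG was found in 0 of 9 (7.26%). S100A4, whose levels overlapped between the groups, had the TATA box and 8 CpG in its window, whereas the nearby S100A6, counted in the AAVS IL4 libraries only, had GC boxes and 31 CpG. Other members went the other way. ANXA1, almost absent outside AAVS IL4, had the TATA box, no GC box and 0 CpG, and S100A11, whose levels overlapped, had a GC box and 22 CpG. A match is a description of these letters and not of a bound factor.

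All 4 AAVS IL4 libraries were above the other 12 for 7 of the 10 members: AHNAK, VIM, CD44, ANXA1, ANXA2, S100A6 and S100A10. The same held for 4.4% of all genes kept (965 of 21932), and 9 genes (0.041%) lay below the other 12. These 7 genes were chosen with this difference known, so the share is given only as background. LGALS1, S100A4 and S100A11 overlapped between AAVS IL4 and the rest. The summed level of the 7 genes was 1865, 404.8, 4441 and 2102 CPM in AAVS IL4 of lines 1 to 4 and 2.42 to 18.5 CPM in the other 12 libraries. In bulk RNA, fewer cells of a type and less RNA per cell cannot be told apart.

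**Figure D1:**
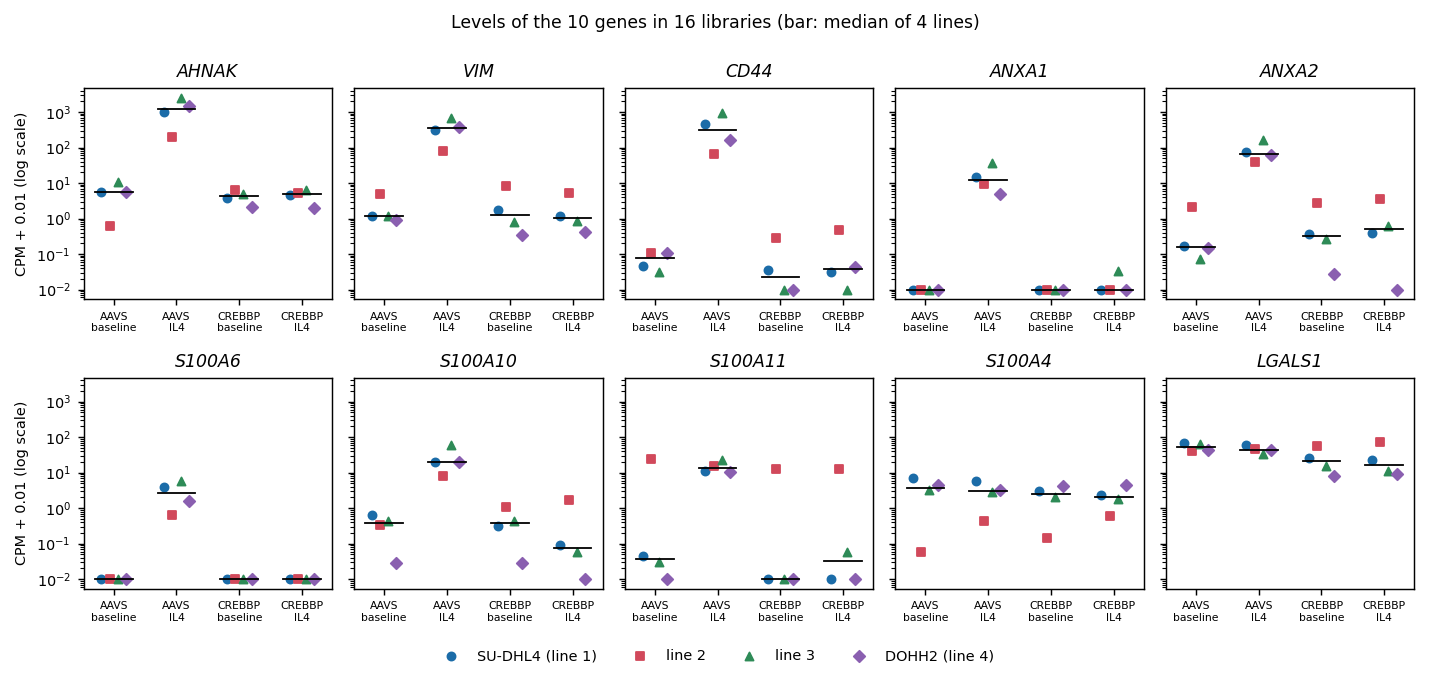
Level of each gene in CPM plus 0.01 (log axis) in the 4 groups, with 1 point per line and a bar at the median of 4 lines. For 7 genes the 4 AAVS IL4 points lie above the other 12, whereas S100A11 is also high in line 2 throughout, S100A4 is low in line 2 and LGALS1 is detected in every library.

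The scaffold and filament genes were high in the AAVS IL4 libraries and near or under 10 CPM elsewhere. AHNAK (ENSG00000124942, GRCh38 chr11:62433542-62556235, minus strand, 5 exons) had 989.5, 199, 2545 and 1466 CPM in AAVS IL4 of lines 1 to 4. At AAVS baseline it had 5.47, 0.613, 10.5 and 5.67 CPM. The levels were 3.83, 6.34, 4.92 and 2.05 CPM in CREBBP baseline and 4.66, 5.14, 6.26 and 1.98 CPM in CREBBP IL4. The lowest AAVS IL4 library (line 2) was therefore above the highest of the others (AAVS baseline, line 3), and the ratio of means between AAVS IL4 and AAVS baseline was 234. VIM (ENSG00000026025, chr10:17228241-17237593, plus strand, 10 exons) had 308, 81.7, 695 and 391 CPM in AAVS IL4 and 1.18, 4.93, 1.17 and 0.916 CPM at AAVS baseline. CREBBP baseline gave 1.69, 8.08, 0.777 and 0.327 CPM of VIM, and CREBBP IL4 gave 1.14, 5.39, 0.858 and 0.403 CPM. Line 2 had the lowest VIM level of the AAVS IL4 libraries and the highest in each of the other 3 groups. VIM-AS1, an antisense RNA at the same locus, had 1.29 to 2.59 CPM in AAVS IL4 and at most 1.96 CPM elsewhere, and whether reads were counted by strand is not given in the sources used here.

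CD44, the hyaluronan receptor, showed the widest difference in level of the members with counts in every group. CD44 (ENSG00000026508, chr11:35138882-35232402, plus strand, 18 exons) had 11679, 2290, 18482 and 7541 counts in AAVS IL4, or 455, 67.5, 941 and 158 CPM. At AAVS baseline it had 2, 4, 1 and 5 counts. The CREBBP pools had 1, 8, 0 and 0 counts at baseline and 1, 19, 0 and 2 counts with IL4, so that line 2 again held most of the few counts. CD44-AS1 and CD44-DT, noncoding RNAs on the opposite strand, were at 0 in the other 12 libraries and at 0.0419 to 4.38 and 0.206 to 1.78 CPM in AAVS IL4.

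LGALS1 (galectin-1, ENSG00000100097, chr22:37675636-37679802, plus strand, 4 exons) did not follow the other members and was counted in every library. It had 66.8, 40.6, 65.5 and 42.9 CPM at AAVS baseline and 59.0, 45.3, 34.6 and 43.6 CPM in AAVS IL4. CREBBP baseline gave 25.9, 57.3, 15.9 and 8.05 CPM, and CREBBP IL4 gave 22, 71.8, 10.9 and 9.18 CPM. In lines 1, 3 and 4 both CREBBP libraries were below both AAVS libraries, and in line 2 both were above.

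The annexins had few or no counts outside the AAVS IL4 libraries. ANXA1 (annexin A1, ENSG00000135046, chr9:73151865-73170393, plus strand, 13 exons) had 381, 318, 702 and 240 counts in AAVS IL4 and 1 count in the other 12 libraries together, in line 3 of CREBBP IL4. Set against a floor of 3 counts over the 4 AAVS baseline libraries, the mean of AAVS IL4 was at least 1072-fold higher. ANXA2 (annexin A2, ENSG00000182718, chr15:60347134-60402883, minus strand, 13 exons) had 73.6, 38.5, 160.3 and 60.6 CPM in AAVS IL4 and 0.160, 2.08, 0.0616 and 0.134 CPM at AAVS baseline. CREBBP baseline gave 0.353, 2.74, 0.259 and 0.0182 CPM of ANXA2, CREBBP IL4 gave 0.380, 3.45, 0.603 and 0 CPM, and line 2 was highest in both. Its processed copies ANXA2P1 and ANXA2P2 stayed at or under 0.624 CPM in every library, so few reads were assigned to them, although estimated counts can be split between near-identical copies.

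The 4 S100 genes showed 3 different patterns. S100A6 (ENSG00000197956, chr1:153534599-153536244, minus strand, 3 exons) had 98, 21, 117 and 75 counts in AAVS IL4 and 0 in each of the other 12 libraries, where a count of 0 allows a level of up to 0.0484 to 0.103 CPM. The mean of AAVS IL4 was at least 197-fold higher than AAVS baseline, against a floor of 3 counts over the group. S100A10 (ENSG00000197747, chr1:151982915-151993859, minus strand, 3 exons) had 19.9, 7.95, 58.6 and 19.8 CPM in AAVS IL4 and 0 to 1.66 CPM elsewhere, with the highest of these in line 2 of CREBBP IL4.

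S100A11 (ENSG00000163191, chr1:152032506-152047907, minus strand, 3 exons) separated by line. In line 2 it had 24.9 CPM at AAVS baseline, 15.6 CPM in AAVS IL4, 13 CPM at CREBBP baseline and 12.5 CPM in CREBBP IL4. In lines 1, 3 and 4 it had 11.1, 22.4 and 10.1 CPM in AAVS IL4 and at most 2 counts in each of the other 9 libraries. Without line 2, S100A11 joined the genes whose AAVS IL4 libraries were all above the rest, and the count of members with this pattern was 8. S100A4 (ENSG00000196154, chr1:153543613-153550136, minus strand, 3 exons), a calcium-binding protein tied to cell motility, was lowest in line 2 in every group. It had 7.29, 0.0490, 3.18 and 4.35 CPM at AAVS baseline and 5.93, 0.412, 2.90 and 3.23 CPM in AAVS IL4. CREBBP baseline gave 3.0, 0.137, 2.01 and 4.20 CPM, and CREBBP IL4 gave 2.32, 0.596, 1.76 and 4.39 CPM. None of the 4 libraries of line 2 had more than 24 counts, and line 1 (2.32 to 7.29 CPM) overlapped both line 3 and line 4.

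**Figure D2:**
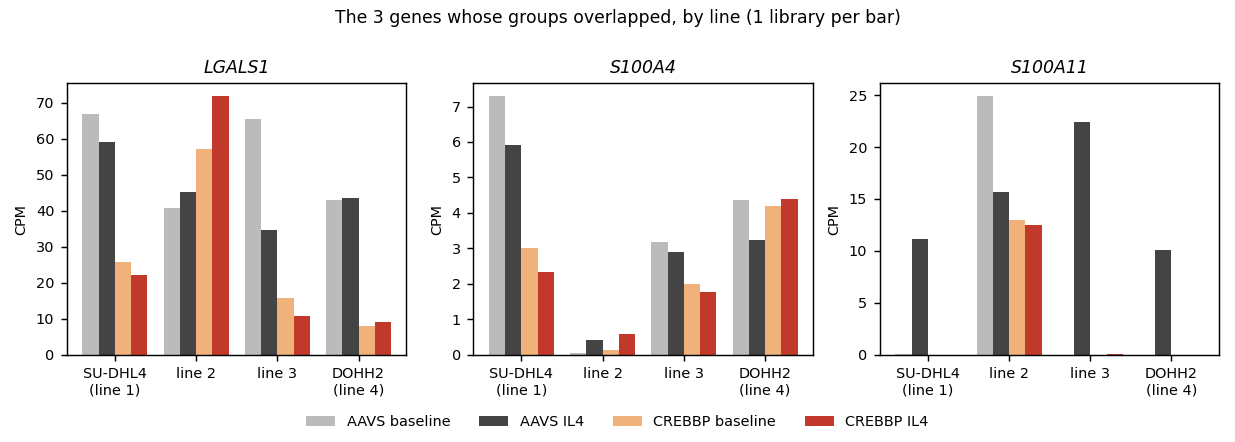
CPM of LGALS1, S100A4 and S100A11 in each line, with 1 library per bar and bars grouped by pool and treatment. S100A11 was at 12.5 to 24.9 CPM in all libraries of line 2 and, in the other lines, at 10.1 to 22.4 CPM in AAVS IL4 and at most 2 counts elsewhere, while S100A4 stayed at or under 0.596 CPM in line 2.

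In the 12 libraries outside AAVS IL4, line 2 was above all libraries of lines 1, 3 and 4 for VIM, CD44, ANXA2 and S100A11 (4 of 10 members, against 8.49% of all genes kept) and below them for S100A4 (1 of 10, against 10.2%). The other 5 members overlapped. These are values of 1 line and give no test. In AAVS IL4, by contrast, line 3 was highest and line 2 lowest for 6 of the 7 separated members. ANXA1 was the exception, with line 4 lowest. The same order of highest and lowest was found in 482 of the 965 separated genes (49.9%).

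Levels of different genes were compared per kilobase of transcript (CPM per kb of the MANE Select transcript). In AAVS IL4, the mean over 4 lines was 171 CPM per kb ± 118 (SD) for VIM, 86.4 ± 19.1 for LGALS1, 74.6 ± 72.4 for CD44, 69.3 ± 52.3 for AHNAK, 53.6 ± 34.3 for ANXA2, 39.6 ± 32.9 for S100A10 and 26.3 ± 9.97 for S100A11. ANXA1 (11.6 ± 9.70), S100A6 (6.89 ± 5.50) and S100A4 (6.08 ± 4.40) were lowest. The ranges over the 4 lines overlapped between all neighbours in this order. AHNAK has the highest CPM of the members in AAVS IL4 and a transcript of 18761 bases, so per kilobase it lay below VIM in all 4 AAVS IL4 libraries, at 0.369, 0.280, 0.421 and 0.430 of its level.

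The proteins of ANXA2 and S100A10 and of ANXA1 and S100A11 are partners, and their genes were compared within each library. In AAVS IL4 the ratio of S100A10 to ANXA2 per kilobase was 0.626, 0.479, 0.847 and 0.756 in lines 1 to 4, while ANXA2 itself spanned 24.8 to 103 CPM per kb. At AAVS baseline the same ratio was 9.01, 0.354, 16.2 and 0.331, from 3 to 85 counts of ANXA2 and 1 to 35 counts of S100A10. In the CREBBP pools it was 0.178 to 3.86, without line 4 of CREBBP IL4, where ANXA2 was not counted. Ratios of few counts also vary by counting, so their spread cannot be set against that in AAVS IL4. S100A11 to ANXA1 was 1.86, 4.16, 1.56 and 5.01 in AAVS IL4, with the higher values in lines 2 and 4. AHNAK to ANXA2 was 1.11, 0.429, 1.32 and 2.00, and CD44 to VIM was 0.587, 0.328, 0.537 and 0.160. S100A6 to its neighbour S100A4 was 0.762, 1.77, 2.43 and 0.576 in AAVS IL4 and 0 in the other 12 libraries.

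To ask whether loss of CREBBP alone went with a change of these genes, CREBBP pools were compared with AAVS pools at baseline, with the line as a block. edgeR's quasi-likelihood test tested 6 of the 10 members, since CD44, ANXA1, S100A6 and S100A11 did not pass its filter on low counts. None of the 6 was called at an adjusted p under 0.05, and 0% of all 18936 genes tested were called. DESeq2 called 511 genes. At an unadjusted p under 0.05, edgeR had 2422 genes (12.8%) and 1 member, LGALS1. For LGALS1, the log2 fold change of CREBBP over AAVS pools was -1.27 (SE 0.404, 95% interval -2.16 to -0.38, edgeR Benjamini-Hochberg adjusted p = 0.282). The differences by line were -1.37, 0.49, -2.04 and -2.41, lower in 3 of 4 lines and higher in line 2. Without line 2, the log2 fold change of LGALS1 was -1.81 with an edgeR adjusted p of 0.0096, and DESeq2 on all 4 lines gave -1.26 with an adjusted p of 0.0456. Over the alternatives tried, its edgeR adjusted p ranged from 4.5e-05 to 0.99982.

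AHNAK had a log2 fold change of -0.09 (SE 0.678, 95% interval -1.59 to 1.40) in this comparison, made up of 3.27 in line 2 and -0.51, -1.09 and -1.45 in lines 1, 3 and 4. VIM (-0.05, interval -1.02 to 0.91), ANXA2 (0.56, interval -1.08 to 2.20), S100A4 (-0.34, interval -1.29 to 0.60) and S100A10 (0.31, interval -1.33 to 1.95) had edgeR adjusted p-values of 0.765 to 0.971. These intervals do not show equal levels, since differences of 2-fold lie within all of them in at least one direction. The 4 members left untested had 9 to 12 counts per group for CD44, 0 for ANXA1 and S100A6, and 1018 and 379 counts for S100A11, nearly all in line 2.

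With IL4, LGALS1 was again lower in CREBBP than in AAVS pools in lines 1, 3 and 4 (log2 differences of -1.42, -1.66 and -2.24) and higher in line 2 (0.66). The fitted log2 fold change was -0.96 (interval -2.29 to 0.36), given without a p because the AAVS IL4 libraries enter it.

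The response to IL4 in the CREBBP pools was tested in the same way. Again 6 of the 10 members were tested, and 0 were called, as were 0% of the 18282 genes tested. DESeq2 called 1 gene. At an unadjusted p under 0.05, edgeR had 502 genes (2.75%) and 0 members. The log2 fold changes were 0.12 for AHNAK (interval -0.39 to 0.62), -0.15 for VIM (-0.83 to 0.53), -0.01 for LGALS1 (-0.57 to 0.54), 0.50 for ANXA2 (-0.69 to 1.69), 0.19 for S100A4 (-0.84 to 1.23) and -1.23 for S100A10 (-3.35 to 0.89), with edgeR adjusted p-values of 0.924 to 0.997. For AHNAK, VIM and LGALS1 the intervals exclude a change of 2-fold in either direction. S100A10 went from 12 to 4 counts in line 1, from 20 to 2 in line 3 and from 32 to 67 in line 2, and its log2 fold change was 0.29 without the block.

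**Figure D3:**
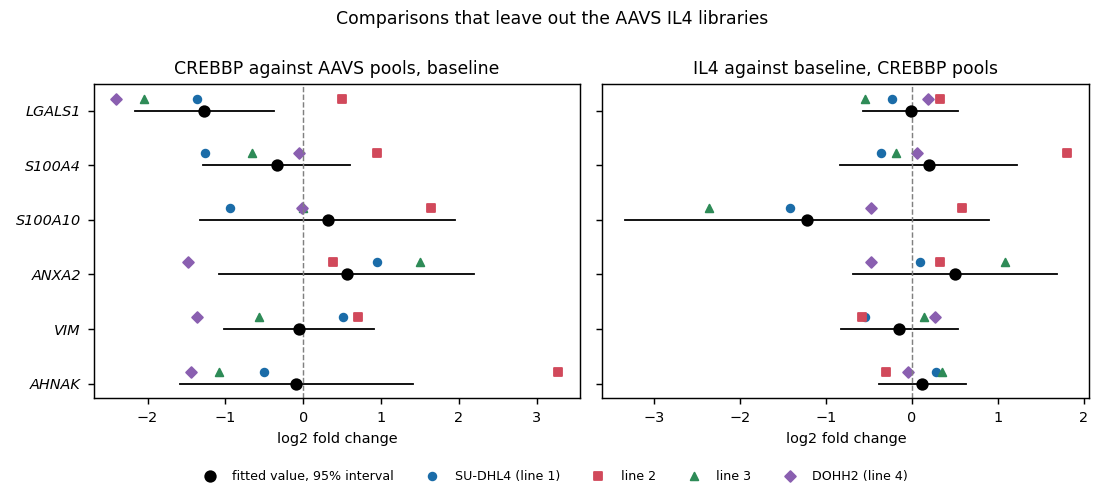
Log2 fold change of the 6 members tested, with the edgeR estimate and its 95% interval in black and the difference in each line in colour. At baseline the interval of LGALS1 runs from -2.16 to -0.38, with line 2 on the other side of zero, and every other interval in both panels includes zero.

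For the comparisons that hold the AAVS IL4 libraries, fitted values are given as a description. Between IL4 and baseline in the AAVS pools, the log2 fold change was 7.86 for AHNAK, 7.63 for VIM, 12.09 for CD44, 7.99 for ANXA2, 6.12 for S100A10 and 6.76 for S100A11, where lines 1, 3 and 4 were higher and line 2 lower (-0.67). The value of S100A11 depends on the block, since it was 1.28 without it and its ratio of mean CPM was 2.38. LGALS1 (-0.29) and S100A4 (0.14, and -0.41 without line 2) were near zero. The median over the 10 members was 7.74, or 7.63 with ANXA1 and S100A6 set at their bounds, beside 0.01 over all 20310 genes tested, of which 2.4% were called (485 or 2.39% higher and 3 or 0.0148% lower). Between CREBBP and AAVS pools with IL4, which uses the same AAVS IL4 libraries, the median over the members was -7.55, or -7.52 with S100A6 at its bound, beside -0.05 over all 19581 genes, of which 4.39% were called (189 or 0.965% higher and 670 or 3.42% lower).

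Genes of the same families and structures were mostly not called. In simulated data the comparisons that hold the AAVS IL4 libraries recovered 1% (IL4 in the AAVS pools) and 2% (CREBBP against AAVS pools with IL4) of 2-fold changes and 41% and 27% of 4-fold changes, so a gene not called there may still differ. Of 11 other annexins, 5 were tested in each of the 4 comparisons and 0 were called, with 4 of the 5 at an unadjusted p under 0.05 for IL4 in the AAVS pools. ANXA4 had the highest log2 fold change of them, 1.54 (edgeR adjusted p = 0.247). ANXA6, the most abundant of them, had 229 CPM in AAVS IL4 and 363 CPM at AAVS baseline (edgeR adjusted p = 0.2996), and ANXA5, ANXA7 and ANXA11 had log2 fold changes of 1.09, 0.40 and -0.05 (edgeR adjusted p-values of 0.134 to 0.897). The list of 17 further genes with S100 symbols holds S100PBP, which codes for a protein that binds S100P and is no S100 gene itself. Of this list, 4 were tested and 0 were called in any comparison. These were S100PBP (0.0025), S100Z (-0.98), S100A13 (-0.35) and S100A1 (-0.60), with log2 fold changes for IL4 in the AAVS pools in brackets. In sum, the other annexins lay within the range of the other libraries, at 421 to 515 CPM in AAVS IL4 against 415 to 598 CPM elsewhere. The S100 list did so too, at 49.6 to 77.3 CPM against 43.9 to 111 CPM. S100PBP alone had 38.0 to 60.2 CPM in AAVS IL4, so that sum says little about the S100 genes.

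Among 12 other intermediate filament genes, 6 were tested and LMNA, which codes for lamin A and C of the nuclear envelope, was the only one called, higher by 4.38 with IL4 in the AAVS pools (edgeR adjusted p = 0.0334). It had 37.8 to 211 CPM in AAVS IL4 and 1.04 to 16.6 CPM elsewhere. LMNB1, LMNB2 and KRT10 were not called (-0.52, -0.59 and -0.40). Of 8 other galectins, 3 were tested and LGALS3 (galectin-3) was called higher, by 4.45 (edgeR adjusted p = 0.0172), whereas LGALS8 (0.95) and LGALS9 (0.09) were not. At baseline, LMNB1 (0.64) and LGALS8 (-0.94) had unadjusted p-values under 0.05 between CREBBP and AAVS pools but adjusted p-values of 0.279 and 0.328 in edgeR.

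Of 14 genes that join the membrane to actin or work with CD44, 12 were tested and 2 were called higher with IL4 in the AAVS pools. These were RDX (radixin, 2.34) and SRGN, the secretory proteoglycan serglycin (7.29), both named after their values were seen and therefore given without a p. MSN (moesin, 0.02), NF2 (merlin, -0.51) and ANK3 (-1.05) were not called, and EZR (ezrin) had 836 CPM in AAVS IL4 against 273 CPM at baseline (1.40, edgeR adjusted p = 0.0519). Of 28 genes of the actin cytoskeleton and motility, all 28 were tested and CAPG alone, a capping protein also named after its value was seen, was called (2.74). ACTB (-0.69), ACTG1 (-0.68), LCP1 (-0.51) and TMSB4X (-0.07) were not, and the median of this list was -0.12. In the comparison of CREBBP with AAVS pools with IL4, which rests on the same AAVS IL4 libraries, LMNA, LGALS3, RDX, SRGN, MMP9, CAPG and PLEC (plectin) were called lower and 0 genes of these lists higher. MMP9 and PLEC were also named after their values were seen. MMP9 had at most 7 counts in any of the other 12 libraries. It therefore passed the filter on low counts through the AAVS IL4 libraries, and a call could only be lower. SRGN had 19.1 to 132 CPM in AAVS IL4 and at most 0.636 CPM elsewhere. In the 2 comparisons without AAVS IL4, 0 genes of these 6 lists were called.

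The genes whose pattern over the 16 libraries was closest to the mean of the 10 members, by the root mean square difference of centred log2(CPM + 1) among 10666 genes with a mean of at least 5 CPM, were ARHGAP31 (0.30), KLF2 (0.36), OPTN (0.38), CD80 (0.43) and TRPS1 (0.46). All 5 lay higher in every AAVS IL4 library (5.86 CPM or more) than in the other 12 (at most 2.02 CPM). Member by member, the closest gene was HIPK2 for both AHNAK (0.68) and CD44 (0.61), SNX9 for VIM (0.77), EMILIN2 for ANXA1 (0.27), MYADM for ANXA2 (0.44), IRF9 for S100A6 (0.31) and OPTN for S100A10 (0.37). For the 3 members that overlapped between groups, it was LAIR1 for LGALS1 (0.57), APH1B for S100A4 (0.35) and CGAS for S100A11 (0.29). CGAS shared the high level in line 2, with at most 16.1 CPM outside AAVS IL4 and 10.1 to 22.1 CPM in AAVS IL4. A small distance need not mean a shared pattern, since log2(CPM + 1) flattens low levels. IRF9 had 8.81 to 20.7 CPM in the other 12 libraries, where S100A6 was not counted. On this scale the root mean square difference from its own mean was 0.87 for S100A6 and 0.98 for LGALS1.

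Summed levels of several marker lists of other cell types were also higher in the AAVS IL4 libraries. The summed level of 13 T-cell genes was 143, 106, 289 and 49.2 CPM in AAVS IL4 of lines 1 to 4 and 10.4 to 49.1 CPM in the other 12 libraries, and CD2, which defines T and NK cells, was at 0 in those 12. The sum of 12 genes of naive and memory B cells was 1857, 894, 3284 and 605 CPM in AAVS IL4 and 73.7 to 402 CPM elsewhere, and IGHD was at 0 in the other 12 libraries. NK-cell genes had 5.48 to 33.0 CPM in AAVS IL4 against 0.533 to 2.27 CPM, with GZMB at 0 in the other 12. Myeloid genes had 17.7 to 48.5 CPM against 6.65 to 31.7 CPM, and these ranges overlapped. Stromal genes (1.62 to 19.0 against 0.149 to 34.3 CPM) and endothelial genes (4.12 to 29.7 against 0.273 to 35.4 CPM) overlapped, with CDH5 at 0 in all 16 libraries. Epithelial genes (2.92 to 37.2 against 0.105 to 0.604 CPM, largely CDH1) and erythroid and platelet genes (3.46 to 20 against 0 to 0.870 CPM, with PPBP, PF4 and GP9 at 0 in all 16) did not. B-cell genes had 6695 to 10641 CPM against 4238 to 9099 CPM and germinal centre genes 1090.3 to 1672 CPM against 1049 to 1836 CPM. Line 3 had the highest sums of the 7 members, the T-cell genes and the genes of naive and memory B cells among the AAVS IL4 libraries. Line 2 had the lowest sum of the 7 members, while line 4 had the lowest sums of the T-cell genes and the genes of naive and memory B cells. The part of these transcripts in the levels of the members was not tested.

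**Figure D4:**
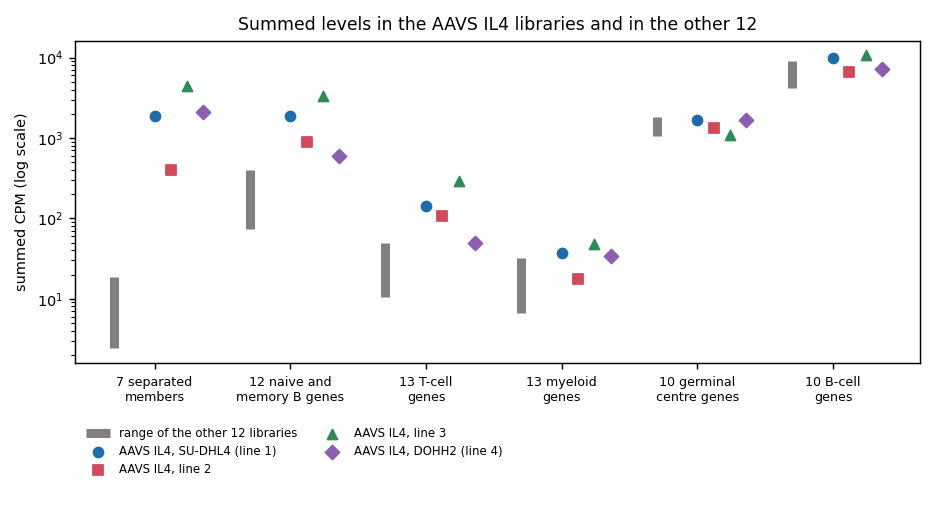
Summed CPM (log axis) of the 7 separated members and of 5 marker lists, with 1 point per AAVS IL4 library and a grey bar for the range of the other 12 libraries. The AAVS IL4 points of the members (404.8 to 4441 CPM), of the naive and memory B-cell genes (605 to 3284 CPM) and of the T-cell genes (49.2 to 289 CPM) lie above the grey bars. For the T-cell genes, line 4 is barely above the bar, which ends at 49.1 CPM. The points of the myeloid, germinal centre and B-cell genes overlap the bars.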

How the data were processed

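The authors trimmed reads with Cutadapt 2.3, checked them with FastQC 0.11.8 and MultiQC 1.7, mapped them to GRCh38 with STAR 2.7.8a and deposited estimated counts from RSEM 1.3.3, which are whole numbers without normalization. These steps are described for primary cells and said to hold for the lines. Whether technical replicates were averaged or strand was used for the lines is not given in the sources used here. The sources differ in RNA input, and the labels give 50 ng.

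CPM, CPM per kb, CREBBP and IL4 comparisons and motif searches were computed here with edgeR 4.0.16, DESeq2 1.42.0 and limma 3.58.1 in R 4.3.3, and with Python. Positions and lengths came from GENCODE 44, promoters from RefSeq. Genes were kept by filterByExpr, scaled by TMM and fitted by edgeR's quasi-likelihood method (8 libraries per comparison, line as a block, Benjamini-Hochberg over all genes, threshold 0.05, two-sided). A line number was taken to mark 1 cell line throughout, which pairs the libraries. As a check, deviations from group means correlated within lines (medians of 0.638, 0.734, 0.319 and 0.717, lowest -0.152 in line 3). This check bears out the pairing less well for line 3 than for the other lines. Replicates were not copies (chi-square per degree of freedom of at least 98.7). With the line as a block, p-values set the difference between groups against its variation over the lines, with dispersions moderated over all genes.

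On simulated data, 4-fold changes were recovered in 67% of genes at baseline (18936 genes) and in 66% for IL4 in the CREBBP pools (18282 genes), and 2-fold changes in 24% and 25%. With the AAVS IL4 libraries, 4-fold changes were recovered in 41% (IL4 in the AAVS pools, 20310 genes) and 27% (CREBBP against AAVS pools with IL4, 19581 genes), and 2-fold changes in 1% and 2%. A floor of 3 counts stands for 0 and covers counting error only.

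The members, marker lists and comparisons were chosen with earlier results of these data known. Named are all members, up to 4 genes with the highest mean CPM of each related list, and the nearest genes by pattern. Alternatives were other size factors, no filter, no block, DESeq2's Wald test, each line left out, TMM-scaled CPM and CPM without RN7SK, RN7SL1 and RN7SL2.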

Additional observations from a re-analysis of the deposited data

Results flagged for a closer look

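Among 35 sets of 4 libraries (1 gene in 1 group) with any spread, 11 had 1 library whose distance to its nearest neighbour exceeded Dixon's 95% limit for 4 values. That limit is set for 5% of sets of independent, normally distributed values. The CPM used here include zeros, and the genes share the same 4 lines. The share of flagged sets over all genes was not computed, so an excess over chance is not shown. In 10 of the 11, line 2 was the high library. These were S100A11 at AAVS baseline (24.9 CPM, next highest 0.0356), CREBBP baseline (13 CPM, next 0) and CREBBP IL4 (12.5 CPM, next 0.0464), ANXA2 at AAVS baseline (2.08 CPM, next 0.160) and CREBBP baseline (2.74 CPM, next 0.353), VIM at AAVS baseline (4.93 CPM, next 1.18) and CREBBP IL4 (5.39 CPM, next 1.14), CD44 at CREBBP baseline (0.274 CPM, 8 counts) and CREBBP IL4 (0.472 CPM, 19 counts), and S100A10 in CREBBP IL4 (1.66 CPM, next 0.0844). The remaining one was ANXA1 in CREBBP IL4, where line 3 had 0.0232 CPM from 1 count and the other lines had 0. None of the 11 was in the AAVS IL4 group.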

How the results depend on the processing

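The median log2 fold change of the members kept its sign under every alternative (6.94 to 8.87 for IL4 in the AAVS pools and -9.11 to -6.33 for CREBBP against AAVS pools with IL4). The members were chosen with high AAVS IL4 levels known, so this sign is a description only. Under both other CPM scales 7 members were separated, and 7 to 8 with a line left out. Leaving out a line cannot undo a separation, so that count could not fall. Counts of called genes depended more on the method. Without the filter they were 40 for IL4 in the CREBBP pools, 586 at baseline (1 member, LGALS1), 1851 for IL4 in the AAVS pools and 3466 for CREBBP against AAVS with IL4. With DESeq2 they were 1, 511 (1 member, LGALS1), 2062 and 4154. With a line left out they ranged from 0 to 0, 0 to 515 (0 to 1 member), 64 to 1035 and 25 to 2547. At baseline only the fit without line 2 called more than 1 gene. Without the replicate block, which pairs libraries of the same line, 540 genes were called for CREBBP against AAVS with IL4 in place of 859, and 467 for IL4 in the AAVS pools in place of 488. The cause of these differences was not tested.

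Direction changed for some members in each comparison. For IL4 in the CREBBP pools, LGALS1 was 0.013 with other size factors, 0.35 without the block and 0.012 with DESeq2. Without the block, S100A4 was -0.094, and S100A10, at -1.23 with it, was 0.29. S100A11, described without a test, went without the block from 6.76 to 1.28 for IL4 in the AAVS pools and from -7.12 to -1.54 for CREBBP against AAVS with IL4. With a line left out for IL4 in the CREBBP pools, VIM ranged from -0.25 to 0.0099, LGALS1 from -0.29 to 0.26 and S100A4 from -0.26 to 0.45. At baseline, VIM was 0.48 without the block, and with a line left out AHNAK ranged from -0.89 to 0.45, VIM from -0.36 to 0.35, S100A4 from -0.53 to 0.066 and S100A10 from -0.32 to 0.88. S100A4 was -0.0058 without the filter, -0.36 without the block and -0.41 to 0.38 with a line left out for IL4 in the AAVS pools, and 0.021 without the filter and -0.33 to 0.39 with a line left out for CREBBP against AAVS with IL4. Genes with few counts outside AAVS IL4 (CD44, ANXA1, S100A6 and S100A11 in 3 lines) gave no test at this depth.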
